A study of Rattus norvegicus with 21 samples.

Results

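The genes described here copy and repair DNA: the origin licensing factors, the MCM2-7 helicase and its activators, the polymerases, the sliding clamp and its loader, the single-strand binding protein, the enzymes that join Okazaki fragments and supply deoxynucleotides, and a small set of repair, checkpoint and DNA methylation genes. They were chosen by name, as every probe set whose platform gene symbol is one of 38 listed symbols, a rule on names and not on values, although the list was drawn up with earlier results of these data known. Of the 38 genes, 35 were measured by 46 probe sets that name them alone, among 14217 genes and 31042 probe sets in all. Rrm2 was named only on probe sets that also name Rrm2l1, and no probe set was named for Cdc6 or Gins2, so these genes are not analysed here. Anterior pituitary RNA of male rats was hybridized to the Affymetrix Rat Genome 230 2.0 array. The rats belonged to 3 inbred strains, Brown Norway (BN), ACI and Copenhagen (COP). Within each strain, 3 arrays came from controls that carried an empty silastic implant and 4 from rats whose implant held 5 mg of diethylstilbestrol (DES), a synthetic estrogen. All rats were implanted at 9 weeks of age and killed at 21 weeks, after 12 weeks of treatment, and every rat, control or treated, was given 50 mg/kg of BrdU, a thymidine analog, 4 h before death.

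A replication origin is licensed when ORC, CDC6 and CDT1 load the MCM2-7 helicase onto DNA, and geminin blocks CDT1 so that each origin is licensed only once per cycle. CDC45 and GINS then turn the loaded helicase on, the primase and polymerases copy the opened strands, and the RFC complex places PCNA, the ring that holds polymerases on the template. Many of these genes are transcribed in late G1 and S phase by the E2F factors. In the rat anterior pituitary, estrogens act on lactotrophs, the prolactin cells, which divide under estrogen treatment, and the ACI strain is known for large estrogen-induced pituitary growths while the BN strain is known to resist them.

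Values are given as array signals on the linear scale to which the authors had brought every array. Changes are log2 differences after 16 was added to each signal, with a standard error (SE), and a gene was called when its adjusted p from the limma fit across all 21832 tested probe sets was under 0.05. A gene with several probe sets is represented by that of the highest mean. Group means under 67.2, the lowest 40th percentile of any array, are named as near the floor, where the size of a change is uncertain. Over all probe sets the middle log2 change with DES lay at -0.13 for ACI, -0.09 for COP and -0.06 for BN, the level against which each gene is read. The sample notes name 1 independent replicate fewer per group than there are arrays, whereas the design text calls all arrays biological replicates. Each array was taken as 1 rat, and the p values measure the spread between these arrays. The arrays numbered 1 and 2 differed from those numbered 3 and 4 across groups and strains: deviations from the group means correlated from -0.05 to 0.32 between arrays of different groups within the same division of numbers, and from -0.35 to 0.05 across it. The division stood out in BN with DES, the labels do not say what the numbers mark, and results that it moves are given with both.

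With DES, replication and repair genes were called higher far more often than lower in ACI, and in both directions in COP and BN. In ACI, 17 of the 35 genes were called higher, against 23.2% of all 11740 tested genes, and 2 were called lower, against 32.5%. Among the 17, Mcm10, Gins1, Exo1 and Uhrf1 exceeded the 40th percentile of an array on DES arrays only. Their calls rest on the groups where they were high. How many of all genes were of this kind was not counted. In COP, 10 genes were called higher, against 21.6% of all genes, and 7 lower, against 28.1%. In BN, 5 were called higher, against 17.0%, and 6 lower, against 22.6%. The share called in either direction in ACI, 54.3%, was close to the 55.6% of all genes, with 48.6% higher and 5.71% lower. In COP 28.6% of the members were called higher and in BN 14.3%. The 35 genes had a median log2 change of 0.53 for ACI, 0.09 for COP and -0.09 for BN, against -0.13, -0.08 and -0.06 over all tested genes. Other scalings changed the balance: quantile normalization gave 11 higher and 4 lower in COP and 8 higher and 6 lower in BN, and centring each array on its median gave 12 and 3 in COP and 6 and 5 in BN. That centring moved the ACI median of all probe sets from -0.13 to 0.08. In RNA of the whole gland, fewer cells of a type and less RNA per cell cannot be told apart.

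**Figure D1:**
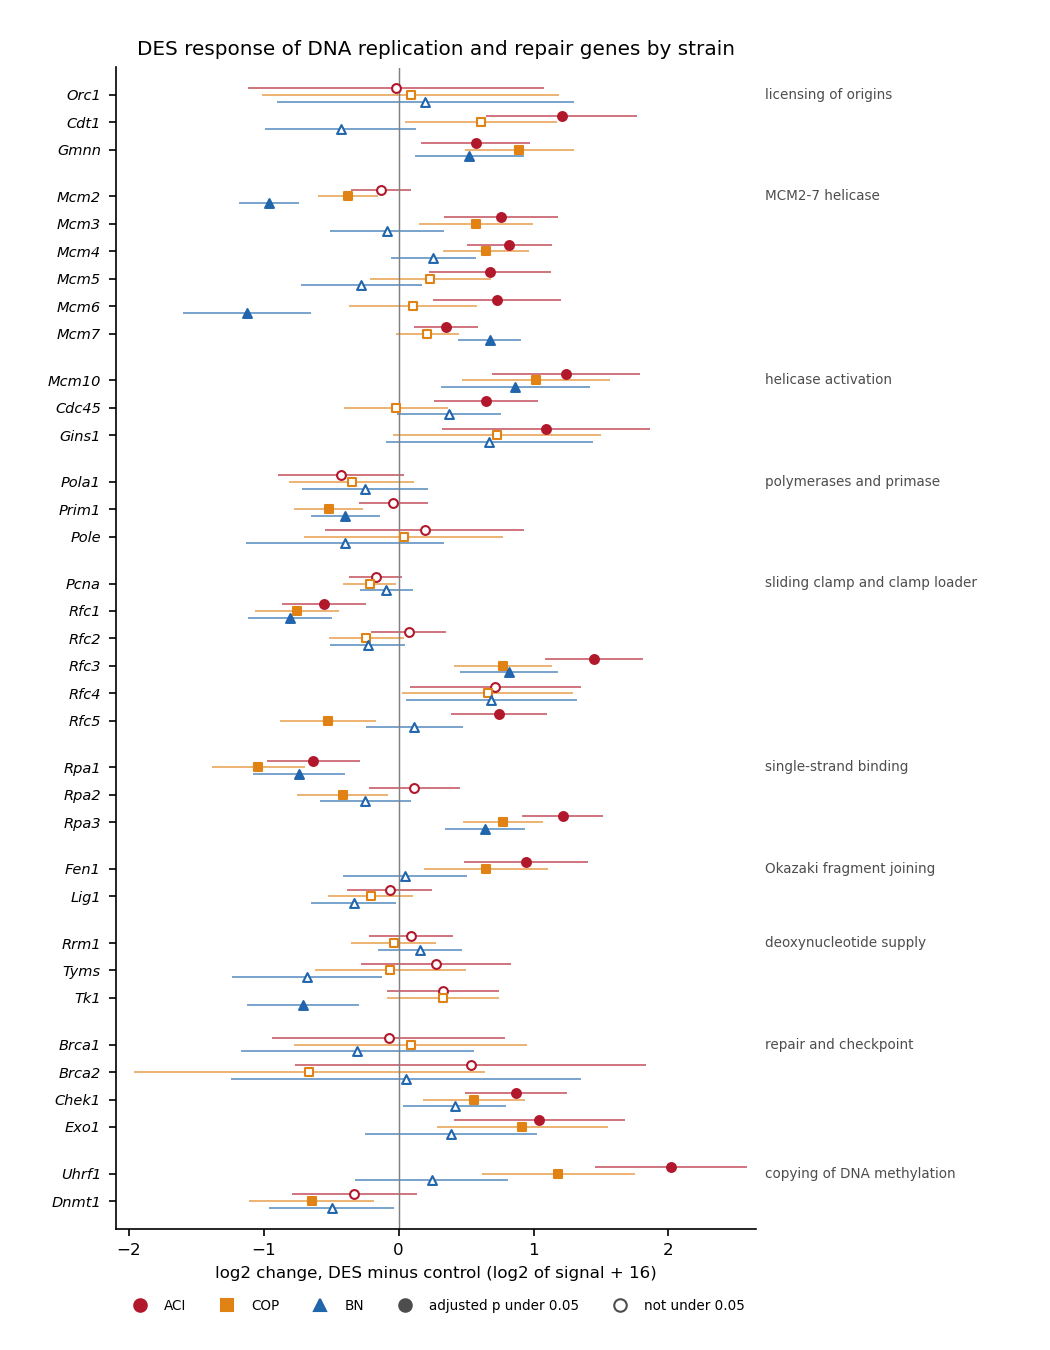
Log2 change with DES of each of the 35 genes, grouped by role, with its 95% confidence interval, for ACI (red circles), COP (orange squares) and BN (blue triangles). Filled symbols mark an adjusted p under 0.05. Most red symbols lie to the right of 0. Of the 35 genes, 18 fall in the order ACI above COP above BN and 2 in the reverse order. The share of all genes in either order was not counted.

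The calls fell into a few patterns across the strains. Gmnn, Mcm10, Rfc3 and Rpa3 were called higher in all 3 strains, and Rfc1 and Rpa1 were called lower in all 3. Mcm3, Mcm4, Fen1, Chek1, Exo1 and Uhrf1 were called higher in ACI and COP and not in BN, and Cdt1, Mcm5, Cdc45 and Gins1 in ACI alone. Mcm6 was called higher in ACI and lower in BN, and Rfc5 higher in ACI and lower in COP. Mcm2 and Prim1 were called lower in COP and BN, Rpa2 and Dnmt1 in COP alone, and Tk1 in BN alone. No call was made in any strain for 11 genes: Orc1, Pola1, Pole, Pcna, Rfc2, Rfc4, Lig1, Rrm1, Tyms, Brca1 and Brca2. Genes called higher in ACI and lower in BN were counted over all genes, as given further on. For the other patterns the share of all genes was not counted, so how usual each is remains unknown. A call in one strain and not in another is not by itself a difference between strains, and the tests of those differences are given further on.

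Many promoters of these genes hold the letters of an E2F site, a feature that the rule did not use. Windows of 300 bases, 250 before the transcription start and 50 after it, were found in RefSeq (assembly GRCr8) for 32 of the 35 genes, 34 windows in all, with none for Orc1, Rpa3 and Mcm4. The E2F words TTTCCCGC, TTTCGCGC, TTTGCCGC and TTTGGCGC were searched on both strands, where the words may overlap each other. At least 1 of them stood in a window of 17 of the 32 genes (53.1%), against 2.14% of all 33469 windows and 4.07% of the 9765 tested genes that have a window. The CCAAT box, CCAAT, was found in 65.6% of the 32 genes and 38.8% of the tested genes, and the GC box, GGGCGG, in 62.5% and 63.6%. Among the genes with a window, E2F words were in 10 of 15 that were called higher in ACI, in none of the 2 called lower, and in 7 of 15 not called. In BN they were in 3 of 4 called higher, 2 of 6 called lower and 12 of 22 not called. A match describes these letters in this window and is no evidence of binding.

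Windows are printed for Mcm6, Cdt1 and Uhrf1, whose DES responses were called different between ACI and BN, for Rfc3, called higher in every strain, and for Rpa1, called lower in every strain. Each is written along the gene's own strand from RefSeq, GRCr8, with E2F words in capitals. In Mcm6 the capitals are 2 words that overlap on opposite strands, Rpa1 holds none, and Uhrf1 has 3 annotated windows, of which only the window shown holds the words.
Mcm6, chr13:42404303-42404602, minus strand: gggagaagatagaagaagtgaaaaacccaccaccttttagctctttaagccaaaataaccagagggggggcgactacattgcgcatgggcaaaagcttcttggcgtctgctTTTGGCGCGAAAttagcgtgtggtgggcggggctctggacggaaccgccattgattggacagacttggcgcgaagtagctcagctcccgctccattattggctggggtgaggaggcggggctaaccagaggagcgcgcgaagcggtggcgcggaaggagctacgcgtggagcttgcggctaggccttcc
Cdt1, chr19:67528999-67529298, plus strand: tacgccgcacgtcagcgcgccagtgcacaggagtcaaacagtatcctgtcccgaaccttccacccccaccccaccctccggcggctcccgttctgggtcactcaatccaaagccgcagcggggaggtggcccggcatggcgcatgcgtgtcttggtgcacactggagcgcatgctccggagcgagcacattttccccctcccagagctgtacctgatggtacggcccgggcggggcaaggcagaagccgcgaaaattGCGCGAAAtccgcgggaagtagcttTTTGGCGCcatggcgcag
Uhrf1, chr9:1222936-1223235, plus strand: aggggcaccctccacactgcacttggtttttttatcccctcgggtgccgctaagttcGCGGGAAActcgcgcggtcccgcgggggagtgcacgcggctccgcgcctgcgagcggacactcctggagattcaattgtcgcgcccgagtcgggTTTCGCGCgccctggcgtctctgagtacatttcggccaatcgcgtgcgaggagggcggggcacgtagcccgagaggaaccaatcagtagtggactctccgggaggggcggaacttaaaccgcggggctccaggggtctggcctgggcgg
Rfc3, chr12:5836318-5836617, plus strand: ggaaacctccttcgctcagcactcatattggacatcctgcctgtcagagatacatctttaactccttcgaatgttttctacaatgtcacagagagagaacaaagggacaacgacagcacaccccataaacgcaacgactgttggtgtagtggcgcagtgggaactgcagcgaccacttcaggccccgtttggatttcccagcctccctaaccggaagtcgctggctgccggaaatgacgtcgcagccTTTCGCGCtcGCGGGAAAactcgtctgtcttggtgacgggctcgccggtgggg
Rpa1, chr10:60698230-60698529, minus strand: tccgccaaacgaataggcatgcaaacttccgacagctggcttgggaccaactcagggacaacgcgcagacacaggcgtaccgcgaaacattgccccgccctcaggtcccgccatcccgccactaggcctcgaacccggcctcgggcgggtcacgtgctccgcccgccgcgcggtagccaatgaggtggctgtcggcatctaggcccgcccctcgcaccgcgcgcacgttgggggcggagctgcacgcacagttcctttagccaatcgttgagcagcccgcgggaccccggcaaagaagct

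Among the licensing genes, Cdt1 rose in ACI and Gmnn rose in every strain. Cdt1, the loader of the MCM helicase, gave signals in ACI of 85.0, 80.7 and 61.2 on the control arrays and 262, 199, 183 and 149.5 on the DES arrays. In BN it gave 145, 82.7 and 102 on the control arrays and 52.3, 101, 72.2 and 83.5 on the DES arrays. Every ACI DES array lay above every ACI control, whereas in BN the groups overlapped. The change was 2.31-fold in ACI (log2 1.21 ± 0.27 SE, adjusted p = 0.000751), and the log2 change was 0.61 ± 0.27 in COP (adjusted p = 0.0732) and -0.43 ± 0.27 in BN (adjusted p = 0.238). Gmnn, which encodes geminin, the inhibitor of CDT1, gave 179, 137 and 136 on the control arrays and 236, 395, 243 and 316 on the DES arrays in COP and 113, 179.9 and 173 on the control arrays and 185, 218, 217 and 299 on the DES arrays in BN. In both strains all DES arrays exceeded all controls, by log2 0.89 and 0.52 (adjusted p = 0.00074 and 0.0423), and in ACI the change was 0.57 (adjusted p = 0.0187). The call in BN was lost without a filter on low signals, and without BN control 1, BN DES 2, BN DES 3 or BN DES 4. The call in ACI was lost without ACI control 3, and the calls in all 3 strains when both Gmnn probe sets were averaged. A second Gmnn probe set, which did not pass the filter on low signals, was called in no strain. Orc1, the large subunit of the origin recognition complex, was near the floor in every group and gave no call.

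The MCM2-7 helicase is a ring of 6 subunits that unwinds DNA ahead of the fork, and its subunits did not move together. In ACI, 5 of the 6 genes were called higher, against 23.2% of all genes, and Mcm2 was not called. In BN, Mcm2 and Mcm6 were called lower and Mcm7 higher. Mcm6 gave 471, 389.9 and 408 on the control arrays and 737, 669, 681 and 750.4 on the DES arrays for ACI, 485, 396 and 488 on the control arrays and 547, 576, 377 and 487 on the DES arrays for COP and 575, 566 and 537 on the control arrays and 355, 395, 150.2 and 176 on the DES arrays for BN. The groups did not overlap in ACI or BN and lay in opposite orders. Mcm6 thus rose 1.66-fold in ACI (log2 0.73 ± 0.23 SE, adjusted p = 0.0115) and fell in BN to 0.46 of the control level (log2 -1.12 ± 0.23 SE, adjusted p = 0.000615), with 0.11 in COP (adjusted p = 0.74). By the two-sided exact permutation test over the 35 splits of 3 and 4 arrays, p was 0.0286 in ACI, the smallest that these arrays allow, and 0.0857 in BN. Among all 11740 genes, 47 were called higher in ACI and lower in BN, and Mcm6 was the only member among them. In BN the DES arrays 3 and 4 gave the lowest Mcm6 signals, while arrays 1 and 2 also lay below all 3 controls.

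Mcm2 fell in COP and most in BN. In ACI it gave 726, 751 and 768 on the control arrays and 698, 680.3, 656 and 694 on the DES arrays, in COP 806, 722 and 795 on the control arrays and 579, 614, 547 and 633 on the DES arrays, and in BN 788, 920.1 and 838 on the control arrays and 405, 513, 391 and 409 on the DES arrays. All DES arrays lay below all controls in each strain, by little in ACI. The log2 change was -0.96 ± 0.11 (SE) in BN (adjusted p = 4.15e-07), -0.38 ± 0.11 in COP (adjusted p = 0.00714) and -0.13 ± 0.11 in ACI (adjusted p = 0.332). The COP call was lost under quantile normalization and median centring. Mcm5 gave 119, 167 and 164 on the control arrays and 259.7, 281, 239 and 215 on the DES arrays in ACI and 151, 167 and 179.8 on the control arrays and 126, 126, 104 and 193 on the DES arrays in BN. It was called higher in ACI, with log2 0.68 ± 0.22 (adjusted p = 0.0126), a call that was lost without ACI control 1, and changed by 0.23 in COP and -0.28 in BN without a call. Mcm7 gave 863, 893 and 918 on the control arrays and 1318, 1210.0, 1770.2 and 1485 on the DES arrays in BN, where the groups did not overlap and the log2 change was 0.67 (adjusted p = 8.16e-05). Mcm7 was also called higher in ACI, with log2 0.35 (adjusted p = 0.0139), and not in COP, with 0.21 (adjusted p = 0.14). Mcm3 and Mcm4 were called higher in ACI, with log2 0.76 and 0.82 (adjusted p = 0.00358 and 0.00011), and in COP, with 0.57 and 0.65 (adjusted p = 0.0264 and 0.00148). The Mcm3 call in COP was lost without COP control 3 or COP DES 2. In BN their changes were -0.09 and 0.26, with no call.

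The 3 measured helicase activation genes, Mcm10, Cdc45 and Gins1, were called higher in ACI, against 23.2% of all genes, with limits given for each. Mcm10, a factor that helps the loaded helicase to start, gave 45.4, 47.5 and 57.3 on the control arrays and 134, 112, 186 and 137 on the DES arrays for ACI, 45.7, 43.5 and 40.9 on the control arrays and 106, 77.3, 133 and 107 on the DES arrays for COP and 62.3, 25.5 and 36.0 on the control arrays and 57.7, 95.8, 79.2 and 115 on the DES arrays for BN. No control array exceeded its own 40th percentile for Mcm10 and 10 of the 12 DES arrays did, so it passed the filter through the DES groups, its control means were near the floor, and its fold is uncertain. The groups did not overlap in ACI and COP and overlapped in BN, with log2 changes of 1.24 ± 0.27, 1.02 ± 0.27 and 0.87 ± 0.27 (SE, adjusted p = 0.00048, 0.00355 and 0.0148). The BN call was lost without BN control 2, BN control 3 or BN DES 4. A second Mcm10 probe set lay under the filter and was called in no strain, and averaged with it the gene lost its call in ACI and COP. Cdc45, a subunit of the active helicase, was called in ACI, with log2 0.65 (adjusted p = 0.00582), and changed by -0.02 in COP and 0.37 in BN. Of its 4 probe sets the other 3 were called in no strain, and the ACI call was lost in their average. Gins1, a subunit of the GINS complex, was called in ACI, with log2 1.09 (adjusted p = 0.0181). It exceeded the 40th percentile on 8 DES arrays and on no control array, its control means were near the floor, and the call was lost without ACI control 2 or ACI DES 1. Of the other GINS subunit genes, Gins3 was called higher in ACI, with log2 0.70 (adjusted p = 0.000819), and Gins4 was not, with -0.22 (adjusted p = 0.272), and was called lower in COP, with -0.47 (adjusted p = 0.0189).

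None of the 3 polymerase and primase genes was called higher in any strain. Prim1, the catalytic subunit of primase, which lays down the RNA primers, gave 1005, 1121 and 1059 on the control arrays and 667, 767, 671 and 847 on the DES arrays in COP and 2094, 2279 and 2059 on the control arrays and 1379.6, 1419.5, 1876 and 1895 on the DES arrays in BN. In both strains all DES arrays lay below all controls, with log2 changes of -0.52 ± 0.12 and -0.40 ± 0.12 (SE, adjusted p = 0.00152 and 0.0159), and in ACI the change was -0.04 (adjusted p = 0.811). The BN call was lost under median centring and without BN control 2 or BN DES 1. Pola1, the large subunit of polymerase alpha, gave log2 -0.43, -0.35 and -0.25 in ACI, COP and BN, and Pole, that of polymerase epsilon, gave 0.19, 0.04 and -0.40, with no call for either.

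The clamp showed no call and the clamp loader was divided. Pcna, the sliding clamp and a widely used marker of cycling cells, gave signals of 3410.0 to 4638 over the 21 arrays. Its log2 changes were -0.17, -0.22 and -0.09 in ACI, COP and BN (adjusted p = 0.143, 0.0727 and 0.492), with 95% intervals of -0.37 to 0.03, -0.41 to -0.02 and -0.29 to 0.11. Under quantile normalization Pcna was called lower in ACI and COP.

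Of the 5 loader subunits, Rfc3 rose and Rfc1 fell in every strain. Rfc3, a small subunit, gave 408, 318 and 368 on the control arrays and 883, 987, 1077 and 1146 on the DES arrays for ACI, 485, 388 and 518 on the control arrays and 849, 860.2, 708 and 786 on the DES arrays for COP and 457, 466 and 449.6 on the control arrays and 598, 654, 1061 and 1083 on the DES arrays for BN. The groups did not overlap in any strain, and BN DES arrays 3 and 4 gave higher signals than arrays 1 and 2. Rfc3 rose 2.73-fold in ACI (log2 1.45 ± 0.17 SE, adjusted p = 4.29e-07), by log2 0.77 in COP (adjusted p = 0.00103) and by 0.82 in BN (adjusted p = 0.000925). Rfc1, the large subunit, gave 1083, 1199 and 1024 on the control arrays and 679, 587, 824 and 934 on the DES arrays for ACI, 1134, 1083 and 1370.2 on the control arrays and 601, 613, 807 and 794 on the DES arrays for COP and 1380.2, 1091 and 1269.8 on the control arrays and 654, 662, 709 and 794 on the DES arrays for BN. All DES arrays lay below all controls in each strain. Rfc1 changed by log2 -0.55 ± 0.15, -0.76 ± 0.15 and -0.81 ± 0.15 (SE, adjusted p = 0.00395, 0.000288 and 0.000238), and the ACI call was lost under median centring. A second Rfc1 probe set was also called lower in each strain, with log2 -0.86 for ACI, -0.55 for COP and -0.42 for BN, and the third was not called.

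Rfc5, another small subunit, moved in opposite directions in ACI and COP. It gave 636, 490.4 and 722 on the control arrays and 1048, 1045, 1191 and 862 on the DES arrays in ACI and 935, 678 and 563 on the control arrays and 495, 501, 485 and 473 on the DES arrays in COP. All ACI DES arrays lay above and all COP DES arrays below their controls, with log2 0.74 ± 0.17 in ACI (adjusted p = 0.00107) and -0.52 ± 0.17 in COP (adjusted p = 0.0175). The COP call was lost under quantile normalization, under median centring and without COP control 1, which gave the highest control signal. A second Rfc5 probe set was called higher in ACI, with log2 0.42, and was not called in COP. Rfc4 gave log2 0.72, 0.66 and 0.69 in ACI, COP and BN without a call (adjusted p = 0.0565, 0.0863 and 0.0884), and was called higher in ACI under quantile normalization and median centring, and Rfc2 gave 0.07, -0.24 and -0.23.

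The 3 genes of replication protein A, the complex that coats single-stranded DNA, did not move together. Rpa3, the smallest subunit, gave 1071, 1109 and 1370.0 on the control arrays and 2654, 2501, 2768 and 3122 on the DES arrays for ACI, 1294, 1319.5 and 1281 on the control arrays and 2124, 2081, 2115 and 2658 on the DES arrays for COP and 1016, 1015 and 1114 on the control arrays and 1232, 1483, 2102 and 1880.1 on the DES arrays for BN. All DES arrays exceeded all controls in each strain. Rpa3 rose by log2 1.22 ± 0.14 for ACI, 0.78 ± 0.14 for COP and 0.64 ± 0.14 for BN (SE, adjusted p = 3.20e-07, 0.000142 and 0.00148). Rpa1, the large subunit that holds most of the DNA contacts, gave 1489, 1649 and 1129 on the control arrays and 944, 911, 876 and 874 on the DES arrays for ACI, 1327, 1112 and 1228 on the control arrays and 629.8, 739, 534 and 469 on the DES arrays for COP and 1629, 1773 and 1898 on the control arrays and 1255, 1256, 765 and 999 on the DES arrays for BN. Its groups also did not overlap, in the opposite order, with log2 -0.63 ± 0.16, -1.04 ± 0.16 and -0.74 ± 0.16 (SE, adjusted p = 0.00291, 2.36e-05 and 0.00132). Rpa2, the middle subunit, was called lower in COP alone, with log2 -0.41 (adjusted p = 0.0443), and that call was lost under quantile normalization, under median centring, without a filter and without any of the COP arrays but COP DES 1.

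**Figure D2:**
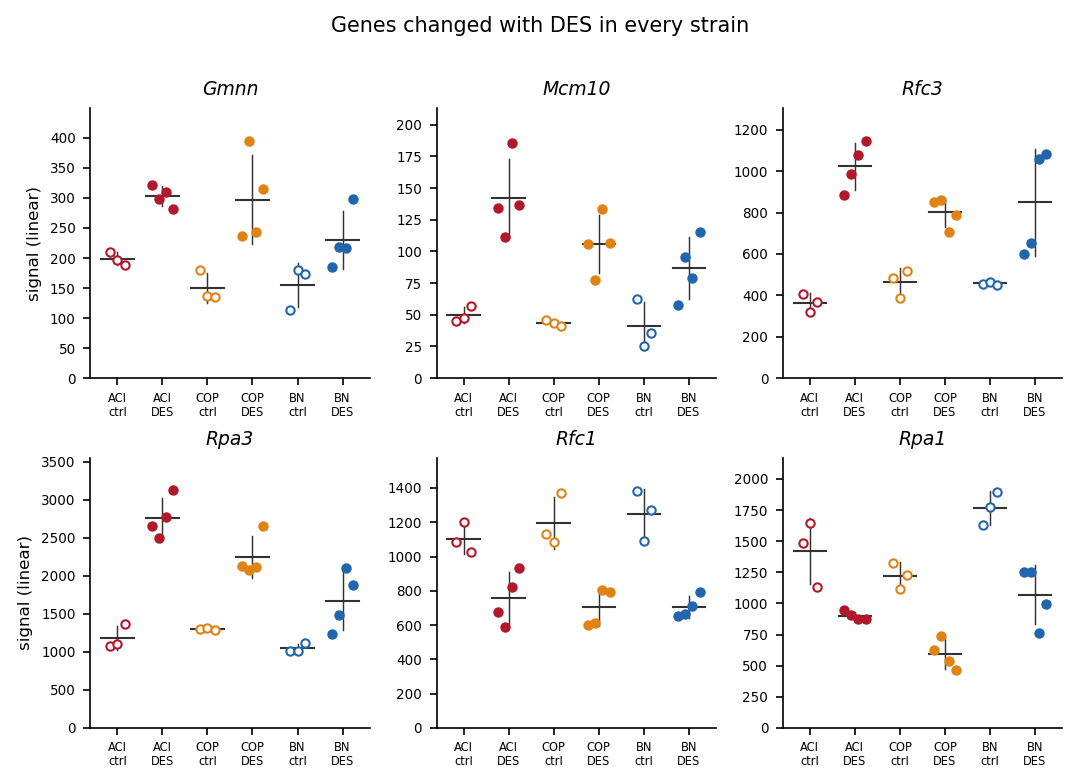
Signals on the linear scale of the 6 genes called in the same direction in all 3 strains, for control (open symbols, ctrl) and DES (filled symbols) arrays of ACI (red), COP (orange) and BN (blue). Horizontal bars are group means and vertical bars are SD (n = 3 control and 4 DES arrays). Gmnn, Mcm10, Rfc3 and Rpa3 sit higher on the DES arrays and Rfc1 and Rpa1 lower, with overlap between groups only for Mcm10 in BN.

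Of the genes that finish the lagging strand, Fen1, the nuclease that trims Okazaki fragments, was called higher in ACI, with log2 0.95 ± 0.22 (adjusted p = 0.00119), and in COP, with 0.65 ± 0.22 (adjusted p = 0.0222). The COP call was lost without COP control 1, COP DES 1 or COP DES 2. In BN the change was 0.05 (adjusted p = 0.895). Lig1, the ligase that seals the fragments, gave log2 -0.07, -0.21 and -0.33 with no call.

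The deoxynucleotide genes showed a single call. Tk1, the cytosolic thymidine kinase that salvages thymidine and also phosphorylates BrdU, gave 227, 196 and 190.3 on the control arrays and 237, 229.6, 279.9 and 302 on the DES arrays for ACI, 164, 134 and 132 on the control arrays and 145, 199, 173 and 224 on the DES arrays for COP and 241, 263 and 158 on the control arrays and 139.7, 106, 101 and 165 on the DES arrays for BN. ACI DES arrays all lay above ACI controls by a small margin, and the BN groups overlapped, since BN control 3 lay below BN DES 4. Tk1 was called lower in BN, with log2 -0.71 ± 0.20 (adjusted p = 0.00848), and the call was lost without BN control 2 and when its 3 probe sets were averaged. The change was 0.33 in ACI and 0.33 in COP (adjusted p = 0.181 and 0.199). A second Tk1 probe set was called both lower in BN, with log2 -0.68, and higher in ACI, with log2 0.72. Rrm1, the large subunit of ribonucleotide reductase, gave log2 0.09, -0.04 and 0.16, and Tyms, thymidylate synthase, gave 0.27, -0.06 and -0.68, without a call. All 4 BN DES arrays for Tyms lay below the 3 BN controls (adjusted p = 0.0548), and Tyms was called lower in BN with a stricter filter and without a variance trend.

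Among the repair and checkpoint genes, Exo1 and Chek1 rose in ACI and COP. Exo1, an exonuclease of mismatch repair and end resection, gave 45.4, 22.7 and 49.9 on the control arrays and 122, 109, 83.7 and 72.5 on the DES arrays for ACI, 36.3, 35.2 and 40 on the control arrays and 89.5, 80.5, 73.3 and 95.3 on the DES arrays for COP and 17.2, 25.5 and 19.8 on the control arrays and 41.1, 34.1, 12.3 and 49.4 on the DES arrays for BN. No control array exceeded its own 40th percentile for Exo1 and 7 DES arrays did, the control means and the BN DES mean were near the floor, and the fold is uncertain. The log2 change was 1.04 ± 0.31 in ACI and 0.92 ± 0.31 in COP (SE, adjusted p = 0.00714 and 0.019), and 0.39 in BN (adjusted p = 0.359). The call was lost in ACI without ACI control 2, and in COP without COP control 1 or COP control 2. Chek1, the checkpoint kinase that restrains origin firing under replication stress, was called in ACI, with log2 0.87 (adjusted p = 0.000425), and in COP, with 0.56 (adjusted p = 0.0173). Its COP call was lost without COP control 1 or COP DES 3. In BN all Chek1 DES arrays lay above all controls, with log2 0.41 and no call (adjusted p = 0.087). Brca1 was near the floor in every group and Brca2 in all but the ACI DES group, and neither of these recombination genes was called.

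Of the 2 genes that copy DNA methylation onto the new strand, Uhrf1 was called higher in ACI and COP and Dnmt1 lower in COP. Uhrf1, which binds hemimethylated DNA and recruits the maintenance methyltransferase, gave 27.4, 32.9 and 29.3 on the control arrays and 164, 119, 222 and 191 on the DES arrays for ACI, 31.5, 47.0 and 30.0 on the control arrays and 78.0, 105, 133 and 96.2 on the DES arrays for COP and 50.5, 29.8 and 55.0 on the control arrays and 43.6, 69.0, 72.7 and 40.9 on the DES arrays for BN. DES and control arrays did not overlap in ACI and COP and overlapped in BN. The fitted log2 change was 2.02 ± 0.27 in ACI (SE, adjusted p = 2.04e-06), 1.18 ± 0.27 in COP (adjusted p = 0.0012) and 0.24 ± 0.27 in BN (adjusted p = 0.527). Uhrf1 exceeded the 40th percentile on 7 DES arrays and on no control array, so it passed the filter through the groups where it was high. All its control means and its BN DES mean were near the floor, and the size of these changes and any rank drawn from them are uncertain. Dnmt1, the maintenance methyltransferase itself, gave 322, 339 and 360.0 on the control arrays and 219, 257, 237 and 149 on the DES arrays in COP. All COP DES arrays lay below all controls, with log2 -0.65 ± 0.22 (adjusted p = 0.0233). That call was lost under quantile normalization, under median centring and without COP control 2, COP control 3 or COP DES 4, and the change was -0.33 in ACI and -0.50 in BN (adjusted p = 0.237 and 0.0937).

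Whether the strains responded differently was tested as an interaction, which compares the log2 change of one strain with that of another. Between ACI and BN, 6 of the 35 genes were called, all with a higher change in ACI, against 8.29% of all genes with a higher change in ACI and 17.8% in either direction. The count depended on the setting: it was 12 under median centring, 11 with the arrays numbered 1 and 2 alone, 10 with the division of numbers as a block, 9 with each array number as a block, and 1 with those numbered 3 and 4 alone. Mcm6 differed by log2 1.85 ± 0.32 (SE, adjusted p = 0.0005), Uhrf1 by 1.78 ± 0.38 (adjusted p = 0.00311) and Cdt1 by 1.64 ± 0.38 (adjusted p = 0.00548). Uhrf1 was near the floor in the controls and in BN with DES, so the size of its difference is uncertain. Tk1 differed by 1.04 ± 0.28 (adjusted p = 0.0154), Mcm5 by 0.95 ± 0.31 (adjusted p = 0.0395) and Mcm2 by 0.83 ± 0.15 (adjusted p = 0.000732). The 3 helicase genes in this group reached the difference in different ways: Mcm6 rose in ACI and fell in BN, Mcm5 was called in ACI alone, and Mcm2 was called in BN and not in ACI. Mcm6 was called under each alternative tried and without any single array, with log2 from 1.28 to 2.42. The Mcm5 call was lost without a filter and when any of ACI control 1, ACI DES 1, 2 or 3, BN control 1, 2 or 3 or BN DES 1, 2 or 3 was left out, and the Tk1 call without BN control 2. The second Tk1 probe set was called as well, with log2 1.41, and the second Rfc1 probe set was called with a lower change in ACI, with log2 -0.44, where the first was not called (0.25, adjusted p = 0.488). Mcm3, Fen1 and Rpa3 lay just outside the threshold, with 0.85, 0.90 and 0.58 (adjusted p = 0.0523, 0.0604 and 0.0625), and were called under several other settings, median centring and a stricter filter among them.

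Between ACI and COP only Rfc5 was called, with log2 1.27 ± 0.24 (adjusted p = 0.0161), against 0.647% of all genes, and the call was lost without ACI control 2 or COP control 1. At an unadjusted p under 0.05, 6 more members differed between ACI and COP, but the share of all genes at that looser threshold was not counted. Between COP and BN, Mcm6 differed by log2 1.23 ± 0.32 (adjusted p = 0.0282), Tk1 by 1.04 ± 0.28 (adjusted p = 0.0341) and Mcm2 by 0.59 ± 0.15 (adjusted p = 0.0251), 3 genes with a higher change in COP, against 4.03% of all genes. Each was lost without some single arrays, and without COP control 2 or BN control 2 no member was called. The 3 comparisons share their DES and control arrays. Gmnn, Mcm10, Rfc3 and Rpa3, called higher in every strain, gave ACI minus BN differences of 0.05, 0.38, 0.63 and 0.58, with 95% intervals of -0.52 to 0.62, -0.40 to 1.16, 0.12 to 1.14 and 0.16 to 1.00 and no call.

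**Figure D3:**
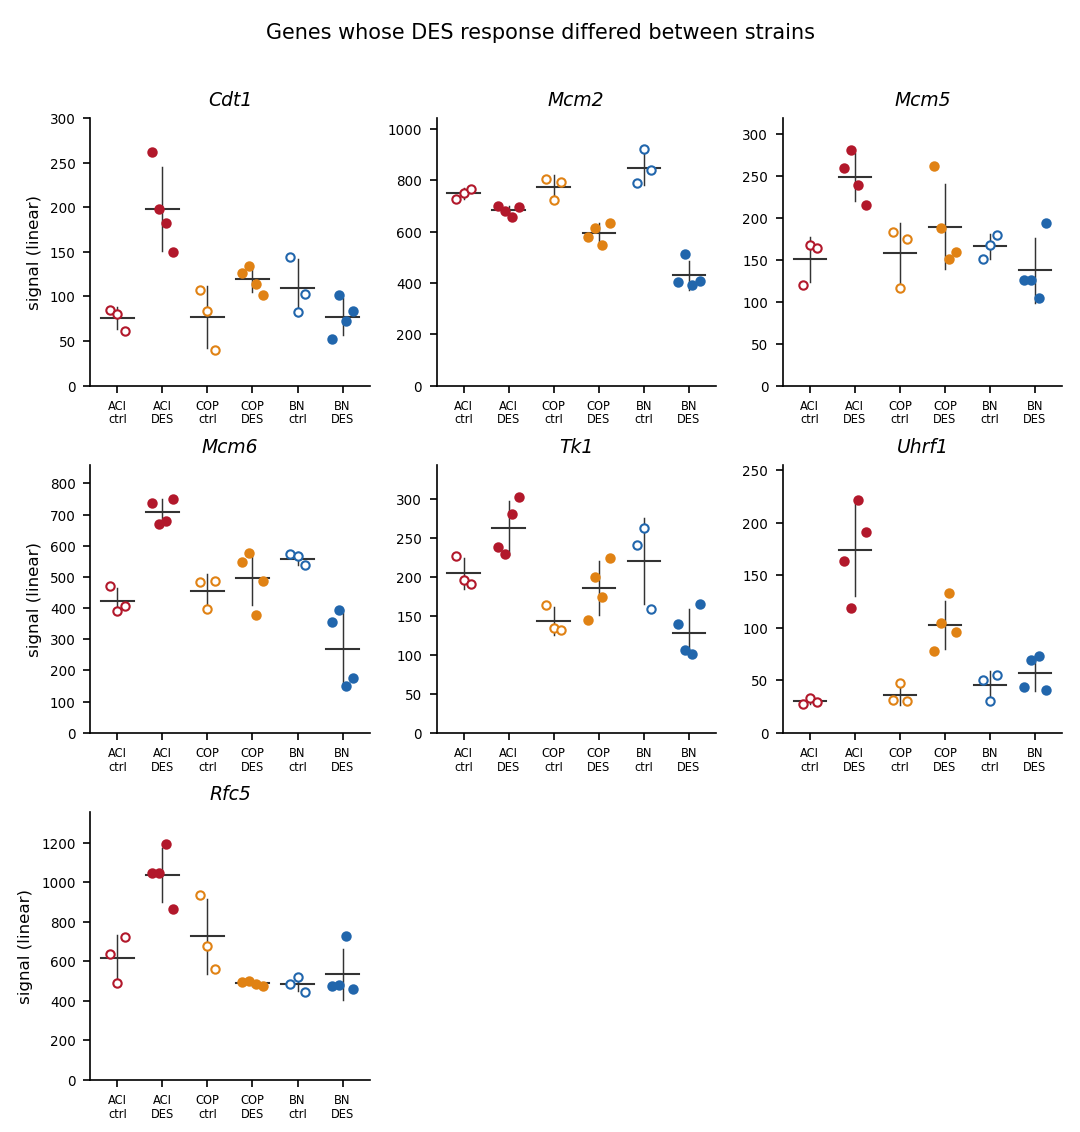
Signals on the linear scale of the 7 genes whose response to DES differed between 2 strains at an adjusted p under 0.05, for control (open symbols, ctrl) and DES (filled symbols) arrays of ACI (red), COP (orange) and BN (blue). Horizontal bars are group means and vertical bars are SD (n = 3 control and 4 DES arrays). Mcm6 sits higher with DES in ACI and lower in BN, and Rfc5 sits higher with DES in ACI and lower in COP.

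Among control rats, Prim1 was the single member whose level was called different between strains. Prim1 gave 1028, 883 and 1017 on the ACI control arrays, 1005, 1121 and 1059 on the COP control arrays and 2094, 2279 and 2059 on the BN control arrays. Every BN control lay above every ACI and COP control. The log2 difference was -1.12 ± 0.13 for ACI minus BN (adjusted p = 5.44e-06) and -1.0 ± 0.13 for COP minus BN (adjusted p = 2.54e-05), a 2.18-fold and a 2.00-fold higher signal in BN. It was the only member called in either comparison, against 7.48% and 6.05% of all genes. Prim1 has 1 probe set on the array. Between ACI and COP controls no member was called by limma, against 1.19% of all genes. A single member, Tk1, had an unadjusted p under 0.05, with log2 0.47, a threshold at which all genes were not counted.

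More members were called between strains in DES-treated rats than in controls, and so were more of all genes. Between ACI and BN, 37.1% of the members were called in either direction, close to the share of all genes. Between COP and BN the members' share, 25.7%, was also close to that of all genes. The shares of all genes are given below by direction. With DES, 12 of the 35 genes were called higher in ACI than in BN, against 16.4% of all genes, and Prim1 was called lower, against 19.7%. These 12 were Mcm2, Mcm3, Mcm4, Mcm5, Mcm6, Cdt1, Rfc5, Rpa3, Fen1, Tk1, Exo1 and Uhrf1. Mcm6 gave 737, 669, 681 and 750.4 in ACI and 355, 395, 150.2 and 176 in BN with DES, Uhrf1 gave 164, 119, 222 and 191 and 43.6, 69.0, 72.7 and 40.9, and Exo1 gave 122, 109, 83.7 and 72.5 and 41.1, 34.1, 12.3 and 49.4. None of these 3 overlapped between the strains, for which the share of all genes is not given. The log2 differences were 1.46 ± 0.21, 1.39 ± 0.25 and 1.21 ± 0.28 (SE, adjusted p = 1.57e-05, 0.000196 and 0.00221). Uhrf1 and Exo1 passed the filter through ACI and COP DES arrays only. Their BN DES means were near the floor, so the size and rank of their differences are uncertain. Between ACI and COP with DES, 3 genes were called, all higher in ACI, against 1.76% of all genes. Dnmt1 gave 261, 391, 408 and 407 in ACI and 219, 257, 237 and 149 in COP with DES, with no overlap. Rfc5 differed by 1.05 ± 0.16, Dnmt1 by 0.73 ± 0.21 and Rpa1 by 0.61 ± 0.15 (SE, adjusted p = 0.000195, 0.0439 and 0.0201). Between COP and BN with DES, 6 genes were called higher in COP, against 13.0% of all genes, and 3 lower, against 12.9%. The largest of these were Prim1, with log2 -1.13 ± 0.11 (adjusted p = 2.43e-07), Exo1, with 1.06 ± 0.28 (adjusted p = 0.00894), and Mcm6, with 0.94 ± 0.21 (adjusted p = 0.00252). The same limit holds for the size and rank of Exo1 here.

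The division of array numbers touched several of these genes in BN. Rfc4, a small loader subunit, gave 324, 356 and 423 on the control arrays and 323, 421, 975 and 954 on the DES arrays in BN. Arrays 3 and 4 lay far above arrays 1 and 2, which were within or just below the range of the controls. With arrays numbered 1 and 2 alone the log2 change of Rfc4 in BN was 0.11, and with those numbered 3 and 4 alone it was 1.16. In ACI the corresponding values were 0.87 and 0.26, and ACI control 3 read 665 where controls 1 and 2 read 355 and 337. Mcm6 divided the other way in BN, with lower signals on arrays 3 and 4. The ACI minus BN difference of Mcm6 was 1.28 with numbers 1 and 2 alone (adjusted p = 0.000431) and 2.42 with numbers 3 and 4 alone (adjusted p = 0.00184). That of Uhrf1 was 1.39 and 2.29, with no call in either (adjusted p = 0.0845 and 0.0742). Arrays numbered 3 and 4 hold a single control array per strain, and with them alone the count of members called higher in ACI was 6.

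**Figure D4:**
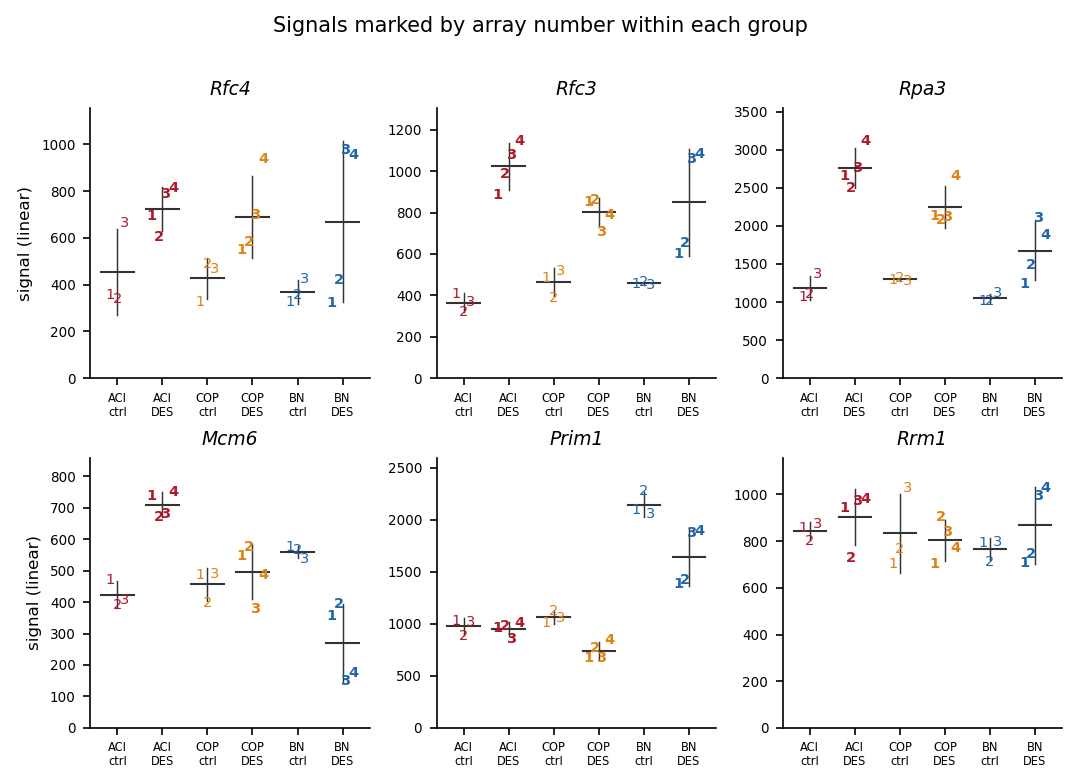
Signals on the linear scale of 6 genes, each array drawn as its number within its group (bold for DES, plain for control, ctrl) for ACI (red), COP (orange) and BN (blue). Horizontal bars are group means and vertical bars are SD. In BN with DES, arrays 3 and 4 sit above arrays 1 and 2 for Rfc4, Rfc3, Rpa3, Prim1 and Rrm1, and below them for Mcm6.

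The rest of the replication and repair machinery, taken from lists chosen with earlier results of these data known, is given as counts. They are to be read against all genes, of which ACI had 23.2% called higher and 32.5% lower, COP 21.6% and 28.1%, and BN 17.0% and 22.6%. Of 16 tested genes of other origin licensing and firing factors, ACI had 2 called higher and 3 lower, COP 1 and 6, and BN 0 and 1. The origin recognition subunits divided: Orc3 rose in ACI (log2 0.74, adjusted p = 2.65e-06) and COP (0.43, adjusted p = 0.00162), while Orc4 (-1.07, adjusted p = 9.90e-06 in ACI) and Orc5 (-0.67, adjusted p = 0.000382 in ACI) fell. Of 15 other polymerase and clamp loader genes, ACI had 3 called higher and 3 lower, COP 1 and 3, and BN 1 and 1. Pold3, a subunit of polymerase delta, fell in all 3 strains, with log2 -1.07 for ACI, -1.30 for COP and -0.82 for BN (adjusted p = 3.07e-06, 2.62e-07 and 0.000174). Pole4, a subunit of polymerase epsilon, fell in ACI and COP, with log2 -0.81 and -0.70 (adjusted p = 1.24e-05 and 0.000107). Dscc1, of an alternative clamp loader, rose in ACI, with log2 1.45 (adjusted p = 1.85e-05), and was 0.30 in COP and -0.05 in BN.

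Of 9 other deoxynucleotide genes, 3 were called higher and 2 lower in each strain. Dctd, the deoxycytidylate deaminase, rose in all 3 strains, with log2 2.53 for ACI, 2.57 for COP and 1.68 for BN (adjusted p = 9.03e-11, 1.10e-10 and 1.81e-07). Dut, the dUTPase that keeps uracil out of DNA, rose by 0.79, 0.52 and 0.62 (adjusted p = 1.19e-05, 0.00144 and 0.000432), and Tk2, the mitochondrial thymidine kinase, fell in each strain, with -1.15, -0.64 and -0.60 (adjusted p = 1.05e-05, 0.00535 and 0.0111). Of 13 genes of histone supply and chromatin copying, ACI had 2 called higher and 1 lower, COP 1 and 2, and BN 2 and 4. The histone chaperone Asf1b rose in ACI, with log2 1.99 (adjusted p = 1.67e-05), and was 0.45 in COP and 0.39 in BN without a call. Its means were near the floor in every group but ACI with DES, so the size of these changes is uncertain. The histone variant gene H2az1 rose by 0.50 in ACI (adjusted p = 0.000105), and Nasp, another histone chaperone, fell in each strain, with -0.39, -0.44 and -0.52 (adjusted p = 0.0126, 0.00697 and 0.00253).

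Of 29 other repair genes, ACI had 9 called higher and 8 lower, COP 7 and 8, and BN 5 and 4, near those shares of all genes in ACI. Rad18, a ubiquitin ligase of damage tolerance, rose by log2 2.42, 1.54 and 1.32 in ACI, COP and BN (adjusted p = 1.82e-10, 2.81e-07 and 4.84e-06). Mpg, a DNA glycosylase of base excision repair, rose by 1.88, 1.28 and 1.11 (adjusted p = 1.23e-10, 7.88e-08 and 1.17e-06). Xpc, which recognizes damage for nucleotide excision repair, fell in each strain, with -0.65, -0.70 and -0.58 (adjusted p = 0.000152, 9.07e-05 and 0.00101).

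In the cell cycle lists nearly every call in ACI and COP was higher. Of 15 G1/S and S phase regulators, ACI had 7 called higher and 0 lower, COP 6 and 1, and BN 2 and 1. Ccna2, the S phase cyclin, gave log2 2.57 in ACI (adjusted p = 1.55e-07), 1.39 in COP (adjusted p = 0.000474) and 0.32 in BN (adjusted p = 0.425). Its control means were near the floor in each strain, so the size of these changes is uncertain. Tfdp1, a partner with which many E2F factors bind DNA, rose by 0.89, 0.73 and 0.83 (adjusted p = 4.72e-05, 0.000478 and 0.000216), and the transcription factor gene Myc by 2.00, 2.43 and 2.66 (adjusted p = 5.50e-07, 4.86e-08 and 2.63e-08). Of 16 G2/M division genes, ACI had 14 called higher and 0 lower, COP 10 and 0, and BN 3 and 2. Their median log2 changes were 1.87, 0.81 and 0.18, where the 35 replication and repair genes gave 0.53, 0.09 and -0.09. Between ACI and BN the response of 12 of these 16 genes was called different, all with a higher change in ACI, against 8.29% of all genes. Cdk1, the mitotic kinase, gave log2 2.36, 1.03 and 0.09 in ACI, COP and BN (adjusted p = 1.22e-09, 0.000159 and 0.758), and Top2a, the topoisomerase that untangles replicated DNA, gave 2.12, 1.27 and 0.43 (adjusted p = 1.20e-09, 3.55e-06 and 0.0617). The mitotic cyclin gene Ccnb2 rose in all 3, with 2.55, 1.68 and 0.51 (adjusted p = 6.84e-11, 7.01e-08 and 0.0269). No test compared the lists with each other.

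**Figure D5:**
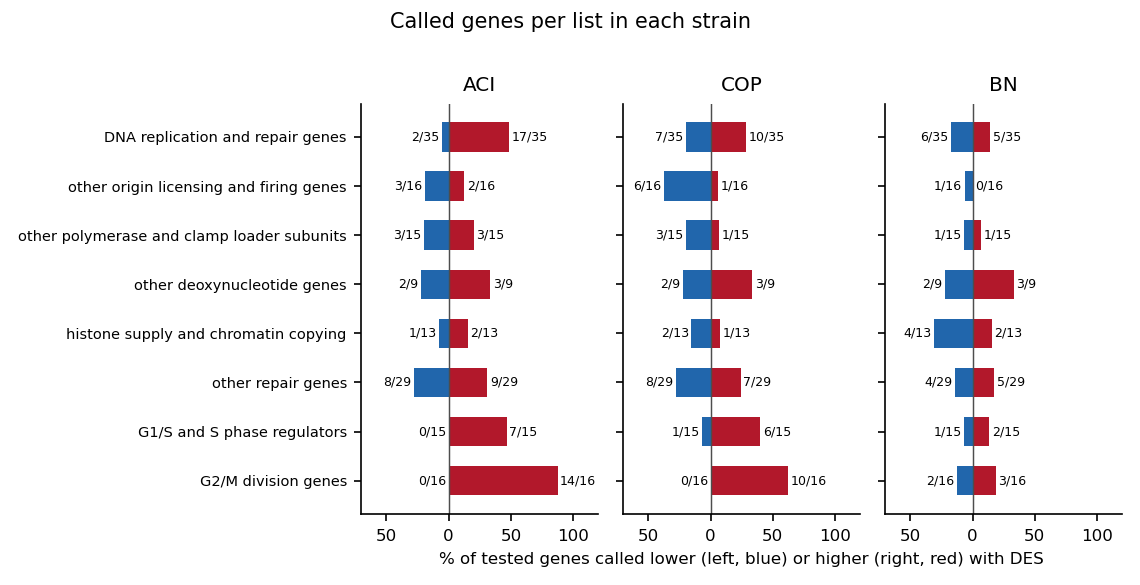
Share of the tested genes of each list called higher (red, to the right) or lower (blue, to the left) with DES at an adjusted p under 0.05 in ACI, COP and BN, in percent, with the count over the number tested beside each bar. In ACI, 17 of the 35 replication and repair genes, 7 of 15 G1/S and S phase genes and 14 of 16 G2/M genes were called higher, where 23.2% of all genes were.

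Markers of other cell types moved with DES in the same arrays. Of the 4 genes listed for lactotrophs, which did not move together, ACI had 0 called higher and 2 lower, COP 1 and 2, and BN 1 and 1. Prl, the prolactin gene that defines these cells, had group means from 27608 in BN controls to 48770 in BN with DES. It was called higher in COP and BN, with log2 0.62 and 0.77 (adjusted p = 0.00927 and 0.00252). In ACI its change was 0.40 without a call (adjusted p = 0.0758). Drd2 was called in no strain, with log2 0.34, 0.13 and -0.35 in ACI, COP and BN (adjusted p = 0.0867, 0.552 and 0.106). Prlr, the prolactin receptor gene, fell in each strain, with log2 -2.03, -1.55 and -2.04 in ACI, COP and BN (adjusted p = 1.02e-08, 7.70e-07 and 2.96e-08). Tac1 fell in ACI and COP, with -1.78 and -1.46 (adjusted p = 0.00114 and 0.00687), to DES means near the floor. In BN the Tac1 change was 0.58 without a call (adjusted p = 0.304). Of 8 macrophage markers, 8 were called higher for ACI, 7 for COP and 5 for BN. Their summed signal ran from 2450 to 2993 in ACI controls and from 12179 to 14132 with DES, from 1871 to 2810 and from 11208 to 15346 in COP, and from 3939 to 4680 and from 6449 to 10794 in BN. Of 4 gonadotroph markers, 4 were called lower for ACI, 4 for COP and 3 for BN, and their summed signal ran from 26534 to 33693 in ACI controls and from 761 to 833 with DES, from 30568 to 33880 and from 1304 to 1344 in COP, and from 21664 to 29286 and from 1803 to 2357 in BN. Of 6 folliculostellate and stem cell markers, 6 were called lower for ACI, 5 for COP and 4 for BN. Of 8 lymphocyte markers on the array, 5 were near the floor in every group: Cd2, Cd3d, Cd79b, Cd8a and Ms4a1. Avp and Oxt, genes of the neural lobe, had means of 121 and 173 in COP controls and were near the floor in every other group. The part of these cell types in the changes above was not tested.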

How the data were processed

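Pituitary RNA of 21 rats was hybridized to 1 array each, in 6 groups of 3 control or 4 DES arrays. The deposited values are 1 signal intensity per probe set on a linear scale, from 0.1 to 71813.9, which the authors had scaled so that the trimmed mean of each array lay between 500.1 and 500.2. The summarization software is not given in the sources used here. Array medians ran from 118.8 to 151.45, and the number of arrays limits the precision. Gene names came from the GEO platform annotation: 20826 probe sets had 1 symbol, 436 several and 9780 none, and 57 control probe sets were left out. The 38 listed genes and the other lists were chosen with earlier results of these data known.

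After 16 was added, log2 values were fitted with limma 3.58.1 (R 4.3.3, 6 group means, moderated variances with a trend) over probe sets that exceeded an array's 40th percentile in 3 or more arrays. All 46 probe sets of the members entered, of which 41 passed that filter. The exceptions were the only probe sets of Orc1 and Brca1 and 1 each of Cdc45, Mcm10 and Gmnn. In all, 12 comparisons were made, each adjusted by Benjamini-Hochberg over 21832 probe sets, and percentages of all genes count 1 probe set per gene. Single changes were also given an exact two-sided permutation test, whose smallest p is 0.0286 for 3 against 4 arrays. The procedure was tested on simulated data.

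Values on every array were given for the 5 largest called rises and 5 largest falls with DES in each strain, the 5 largest called differences of response, and the 3 largest called differences between strains within control or DES rats. Rfc4 by array, Pcna by its range, and Gins3, Gins4, Drd2, Prlr and Tac1 were chosen after their values were seen. Of each further list, 3 genes with the smallest adjusted p in ACI were named. Alternatives were an unfiltered table, the 60th percentile in the filter, 1 or 64 in place of 16, quantile normalization, median centring, no variance trend, the array number or its division into 1 and 2 against 3 and 4 as a block, either part alone, the mean of a gene's probe sets, 1 strain in the fit, and leaving out each array. Promoter windows came from RefSeq, GRCr8.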

Additional observations from a re-analysis of the deposited data

Results flagged for a closer look

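In 6 of 105 groups of 4 DES arrays, 1 array lay apart from the other 3, by a gap larger than chance gives in 5% of groups, so a number of this size can arise by chance. The gap is given as a share of the group's range. Mcm2 read 513 on BN DES 2 against 390.6 to 408.5 on the others (gap 0.836). Rfc5 read 725.9 on BN DES 3 against 458.1 to 480.1 (0.899), and Rpa3 read 2657.5 on COP DES 4 against 2080.9 to 2124.4 (0.915). Rrm1 read 726.9 on ACI DES 2 against 943.2 to 980 (0.872), Dnmt1 read 261.2 on ACI DES 1 against 390.9 to 407.5 (0.906), and Brca2 read 43 on ACI DES 4 against 80.7 to 90 (0.843). Rpa3 in COP stayed called higher without any single array.

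The response to DES differed between strains, by limma's test of the difference itself, in 10 cases. ACI minus BN gave log2 1.85 for Mcm6, 1.78 for Uhrf1, 1.64 for Cdt1, 1.04 for Tk1, 0.95 for Mcm5 and 0.83 for Mcm2. ACI minus COP gave 1.27 for Rfc5. COP minus BN gave 1.23 for Mcm6, 1.04 for Tk1 and 0.59 for Mcm2. Only the Mcm6 and Mcm2 differences between ACI and BN, with those of Cdt1 and Uhrf1, were called without any single array.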

How the results depend on the processing

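Of 47 results for single genes, 904 values under other settings kept their direction and side of the threshold, 113 kept the direction and lost the call, and none reversed. Leaving out 1 array at a time gave 15 to 17 members called higher in ACI (17 with all arrays) and 2 to 3 lower (2), 8 to 10 higher in COP (10) and 5 to 7 lower (7), and 3 to 6 higher in BN (5; 3 without BN DES 4) and 4 to 8 lower (6). Differences of response ran from 4 to 9 for ACI and BN (6), 0 to 1 for ACI and COP (1; 0 without ACI control 2 or COP control 1) and 0 to 3 for COP and BN (3; 0 without COP control 2 or BN control 2, and 1 without COP DES 2 or BN control 1). Control strains gave 1 to 1 for ACI and BN, 0 to 0 for ACI and COP and 1 to 2 for COP and BN (1; 2 without COP control 3), and DES rats 12 to 16 for ACI and BN (13), 1 to 4 for ACI and COP (3; 1 without COP DES 3) and 6 to 9 for COP and BN (9). Quantile normalization gave 4 lower in COP, 8 higher in BN and 2 in COP and BN controls. Median centring gave 1 lower in ACI, 3 lower in COP, 12 differences of response between ACI and BN and 5 between ACI and COP with DES. Only BN arrays in the fit gave 3 higher in BN. Arrays numbered 1 and 2 alone gave 3 higher in BN, 11 differences of response between ACI and BN and 5 between COP and BN controls. Arrays numbered 3 and 4 alone, with 1 control array per strain assumed to vary like the other groups, gave 6 higher and 0 lower in ACI, 3 higher and 2 lower in COP, and 1, 0 and 0 differences of response for ACI and BN, ACI and COP, and COP and BN. The causes were not tested. Arrays of the same number in different groups correlated from -0.05 to 0.32 in their deviations. Of these 48 pairs, 32 were over 0.1, and 15 of 21 arrays correlated best with their own number. Pairs within the division of numbers ran from -0.05 to 0.32 and pairs across it from -0.35 to 0.05. The main fit held no block for the numbers, since the methods state none, so its counts do not take this structure into account. With the replicate number as a block, ACI had 18 members higher and 2 lower, COP 12 and 7, and BN 5 and 7, differences of response were 9, 1 and 3, controls gave 1, 0 and 2, and DES rats 13, 5 and 12, for ACI and BN, ACI and COP, and COP and BN. The division of numbers as a block gave 10 differences of response between ACI and BN, 2 between COP and BN controls and 5 between ACI and COP with DES. By the exact permutation test, with a smallest p of 0.0286, Gmnn, Mcm10, Mcm6, Rfc3, Rpa3 and Tk1 in BN and Rfc1 in ACI lay outside 0.05. Orc1 and Brca1 were near the floor in all groups, as were the controls of Mcm10, Gins1, Brca2, Exo1 and Uhrf1, and changes there are uncertain in size.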
